A study of Mus musculus with 4 samples.

Results

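The genes described here are 8 tendon genes, Scx, Mkx, Egr2, Tnmd, Fmod, Kera, Thbs4 and Comp, which encode regulators and matrix proteins of tenocytes, the fibroblasts of tendon. They were picked by gene symbol, and all 8 were found, each under 1 identifier, among the 45706 genes of the count table. Expression was measured by RNA sequencing of whole regenerating mouse digit tips harvested 14 days after amputation. Each of 4 genotypes gave 1 library: wildtype, Sp8 cKO, Sp6 cKO, and the combined Sp6+Sp8 cKO, where cKO stands for a conditional knockout of these zinc-finger transcription factors of the epidermis. For the knockouts, tamoxifen was injected into the abdomen at 75 mg/kg on 5 days in a row, followed by 5 days of rest before the amputation. The sources used here do not say whether wildtype mice were injected too, nor give the floxed alleles, the Cre line, the strain, the age, the sex or how many animals and digits went into a library. They also describe amputations through the distal and through the middle phalanx without tying either to a sample. The 3 cKO libraries form batch 1 of the labels and the wildtype library batch 3. In comparisons that involve wildtype, genotype and batch therefore cannot be told apart, whereas the cKO libraries can be compared within 1 batch.

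Tendon joins muscle to bone through parallel collagen fibrils laid down by tenocytes. The transcription factor Scx marks tendon progenitors, and Mkx and the zinc-finger factors Egr1 and Egr2 act with it to raise collagen and other matrix genes. Tnmd is a membrane glycoprotein of maturing tenocytes, Fmod and Kera are small leucine-rich proteoglycans that bind collagen fibrils and set their diameter, and Thbs4 and Comp are related thrombospondins that link matrix proteins to each other. In the digit tip the extensor and flexor tendons end on the base of the distal phalanx, close to the joint at which the tissue was trimmed.

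Deposited totals lay between 12588518 and 21834910 counts per library, with wildtype the deepest. Levels are given as CPM, counts relative to each library's total after scaling with edgeR's TMM factors, and 1 count was worth between 0.046 and 0.0794 CPM. With 1 library per group nothing could be tested, no p-value is given, and each comparison describes a pair of libraries rather than a pair of conditions. Intervals are exact 95% intervals of a ratio given both counts and cover counting error only, since reads amplified without molecular identifiers are not independent molecules. A gene was counted as past the size rule when its log2 ratio was at least 1 in size, its interval excluded 1 and its CPM reached 1 in at least 1 of the libraries compared. The targeted genes followed their labels in part: Sp6 was 3.34-fold lower than wildtype in Sp6 cKO but only 1.69-fold lower in Sp6+Sp8 cKO, and Sp8 was 3.82-fold lower in Sp8 cKO and 4.78-fold lower in Sp6+Sp8 cKO. Xist, which is expressed from the inactive X chromosome of females, was at 27.9 CPM in Sp8 cKO and between 1526 and 3528 CPM in the others. The sex of the animals may therefore differ between Sp8 cKO and the other libraries. Its part in comparisons that involve Sp8 cKO, also those within batch 1, was not tested for any of the 8 genes.

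The 5 matrix and membrane genes were lowest in Sp6+Sp8 cKO and the 3 regulators were not. Levels of Tnmd, Fmod, Kera, Thbs4 and Comp in that library were below those of wildtype, Sp6 cKO and Sp8 cKO alike, with log2 ratios between -0.43 and -0.92 to wildtype, between -0.46 and -1.29 to Sp6 cKO and between -0.60 and -1.13 to Sp8 cKO. The ratios to Sp6 cKO and Sp8 cKO lie within batch 1, so the low level of these 5 genes does not depend on the wildtype library. Within batch 1 the regulator Mkx was lowest in Sp6+Sp8 cKO too, at 7.34 CPM against 7.60 and 8.49 CPM. Both of its intervals there included a ratio of 1. The regulator Scx rests on few counts, and its interval to wildtype, 0.621 to 1.53, includes the ratios of Tnmd, Thbs4 and Comp. A fall of that size in Scx can therefore not be excluded. Only Kera passed the size rule, and it did so only against Sp6 cKO and Sp8 cKO. RNA of a whole digit tip cannot tell fewer tenocytes from less RNA per tenocyte.

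**Figure D1:**
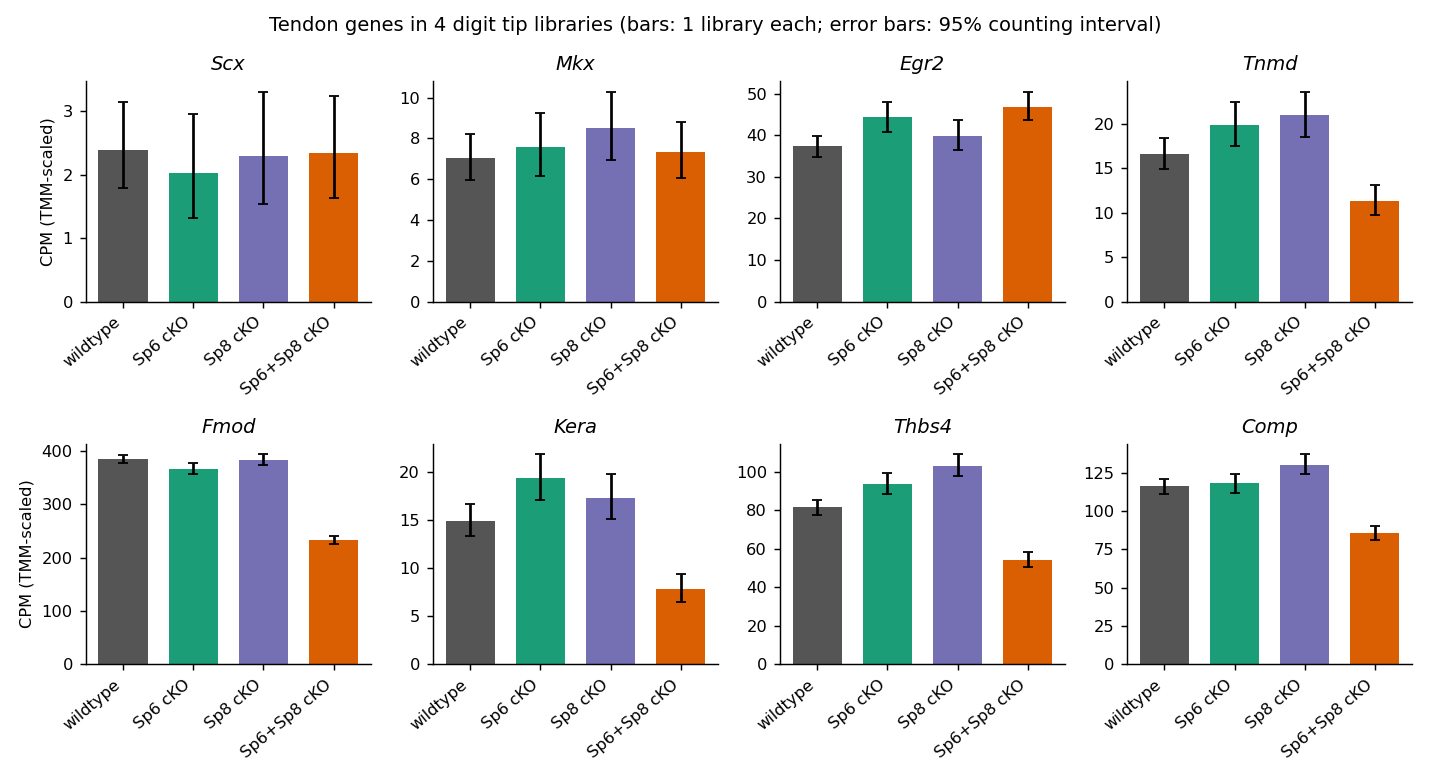
Level of each of the 8 tendon genes in CPM (y axes, from 0, a separate scale for each gene) in the 4 libraries (x axes). Bars stand for single libraries and error bars for exact 95% counting intervals. Tnmd, Fmod, Kera, Thbs4 and Comp are lowest in Sp6+Sp8 cKO, while the intervals of Scx and Mkx overlap in all libraries.

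The regulators were examined first. Scx, a basic helix-loop-helix factor (ENSMUSG00000034161, chromosome 15, 76457452 to 76459458; positions here are on GRCm38), had 2.39 CPM in wildtype, 2.02 CPM in Sp6 cKO, 2.30 CPM in Sp8 cKO and 2.34 CPM in Sp6+Sp8 cKO. These levels rest on 52, 26, 29 and 36 counts and no order among them can be read. Its ratio of Sp6+Sp8 cKO to wildtype was 0.978 (95% interval 0.621 to 1.53), so no difference was detectable at this depth. Scx lies inside the gene Bop1, which is transcribed from the opposite strand. The libraries kept strand information per the labels' protocols, but the sources used here do not say whether the counting used it, so some reads could have been split between Scx and Bop1.

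Mkx, a homeobox factor of the Iroquois-related group (ENSMUSG00000061013, chromosome 18, 6934518 to 7004780), stood at 7.04 CPM in wildtype, 7.60 CPM in Sp6 cKO, 8.49 CPM in Sp8 cKO and 7.34 CPM in Sp6+Sp8 cKO. The counts behind these levels were 153, 98, 107 and 113. All 6 intervals between libraries included 1, and the widest gap, Sp8 cKO over wildtype, was 1.21-fold (95% interval 0.934 to 1.56). A noncoding gene on the same strand, AC148004.2, overlaps the 3' end of Mkx, so the division of reads there is uncertain.

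Egr2, a zinc-finger factor that also drives myelination in Schwann cells (ENSMUSG00000037868, chromosome 10, 67535475 to 67542188), stood at 37.3 CPM in wildtype, 44.3 CPM in Sp6 cKO, 39.9 CPM in Sp8 cKO and 46.9 CPM in Sp6+Sp8 cKO. It was the only member with its highest level in Sp6+Sp8 cKO. The ratio to wildtype there was 1.26 (95% interval 1.14 to 1.39) and the ratio to Sp8 cKO 1.18 (1.05 to 1.32), while the ratio to Sp6 cKO was 1.06 with an interval from 0.948 to 1.18. Sp6 cKO and Sp6+Sp8 cKO, neighbours in this order, could not be told apart by counting error.

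Tnmd, tenomodulin (ENSMUSG00000031250, chromosome X, 133850980 to 133865577), stood at 16.6 CPM in wildtype, 19.8 CPM in Sp6 cKO, 21 CPM in Sp8 cKO and 11.3 CPM in Sp6+Sp8 cKO. Its level in Sp6+Sp8 cKO was thus below the 3 others, and both single cKO libraries were above wildtype. The log2 ratio of Sp6+Sp8 cKO was -0.54 to wildtype, -0.80 to Sp6 cKO and -0.88 to Sp8 cKO, the last being a ratio of 0.540 (95% interval 0.443 to 0.656). Tnmd is X-linked. The library low in Xist had the highest Tnmd and the library highest in Xist the lowest, and the part of the animals' sex in this result was not tested.

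Fmod, fibromodulin (ENSMUSG00000041559, chromosome 1, 134037254 to 134048277), stood at 385 CPM in wildtype, 367 CPM in Sp6 cKO, 383 CPM in Sp8 cKO and 234 CPM in Sp6+Sp8 cKO. The first 3 libraries lay close together and Sp6+Sp8 cKO stood apart below them. With 3594 counts in Sp6+Sp8 cKO and 8371 in wildtype the counting error was small, and the ratio was 0.607 (95% interval 0.583 to 0.631). The ratios to Sp6 cKO and Sp8 cKO were 0.636 (0.609 to 0.664) and 0.609 (0.583 to 0.636).

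Kera, keratocan, which is best known as a keratan sulfate proteoglycan of the cornea (ENSMUSG00000019932, chromosome 10, 97606879 to 97613692), stood at 14.9 CPM in wildtype, 19.4 CPM in Sp6 cKO, 17.3 CPM in Sp8 cKO and 7.86 CPM in Sp6+Sp8 cKO. It had the widest spread of the 8 genes, 2.46-fold from lowest to highest library. The ratio of Sp6+Sp8 cKO to Sp6 cKO was 0.406 (95% interval 0.324 to 0.506), from 121 and 250 counts, and the ratio to Sp8 cKO was 0.454 (0.361 to 0.570). Against wildtype it was 0.526 (0.423 to 0.650), a log2 ratio of -0.92, just short of the size rule. Sp6 cKO was 1.3-fold above wildtype (1.10 to 1.53), while Sp8 cKO did not differ from either beyond counting error.

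Thbs4, thrombospondin 4 (ENSMUSG00000021702, chromosome 13, 92751590 to 92794818), stood at 81.5 CPM in wildtype, 93.7 CPM in Sp6 cKO, 103 CPM in Sp8 cKO and 54.3 CPM in Sp6+Sp8 cKO. Its order of libraries was that of Tnmd, with Sp8 cKO highest, then Sp6 cKO, wildtype and Sp6+Sp8 cKO. The log2 ratio of Sp6+Sp8 cKO was -0.59 to wildtype, -0.79 to Sp6 cKO and -0.93 to Sp8 cKO. In the last comparison the ratio was 0.525 (95% interval 0.481 to 0.574).

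Comp, cartilage oligomeric matrix protein (ENSMUSG00000031849, chromosome 8, 70373558 to 70382066), stood at 116 CPM in wildtype, 118 CPM in Sp6 cKO, 130 CPM in Sp8 cKO and 85.8 CPM in Sp6+Sp8 cKO. The spread was the narrowest among the 5 matrix and membrane genes, 1.52-fold from lowest to highest library. The ratio of Sp6+Sp8 cKO was 0.740 to wildtype (95% interval 0.692 to 0.791), 0.729 to Sp6 cKO (0.677 to 0.785) and 0.659 to Sp8 cKO (0.612 to 0.708). Comp is also made by cartilage, whose markers are given below.

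Levels of different genes were compared only per length, as TPM, the usual length-scaled unit, computed here from the counts and the summed exon length of each gene. Fmod led with a mean over the libraries of 237 TPM, followed by Comp at 86.8 TPM and Thbs4 at 57.9 TPM. Tnmd at 29.1 TPM and Egr2 at 28.5 TPM were nearly level, Kera was at 14.9 TPM, and the regulators Mkx and Scx were lowest at 4.28 and 2.59 TPM. The level of Fmod per kilobase was 97.7 times that of Scx in wildtype, 111 times in Sp6 cKO, 101 times in Sp8 cKO and 60.6 times in Sp6+Sp8 cKO, and Kera stood at 5.50, 8.46, 6.62 and 2.96 times Scx in the same order. Both ratios were lowest in Sp6+Sp8 cKO, and the counting error of Scx carries into them.

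The stretches upstream of Tnmd, Fmod and Thbs4 are shown because these genes were low together in Sp6+Sp8 cKO and their starts differ in base composition. They are RefSeq sequences on GRCm38.p6, read 5′ to 3′ on the strand of the gene and ending before the first exon base of the GENCODE model. Tnmd covers chrX:133850758-133850979 on the plus strand, Fmod chr1:134037004-134037253 on the plus strand and Thbs4 chr13:92794819-92795068 on the minus strand. Capitals mark the E-box CANNTG, the letters that Scx and other helix-loop-helix factors bind. This and the other motifs below were searched on both strands.
Tnmd: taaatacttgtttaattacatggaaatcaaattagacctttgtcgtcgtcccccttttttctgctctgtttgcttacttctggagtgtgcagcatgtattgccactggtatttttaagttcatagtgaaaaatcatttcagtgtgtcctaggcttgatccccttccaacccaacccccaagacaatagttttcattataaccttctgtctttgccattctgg
Fmod: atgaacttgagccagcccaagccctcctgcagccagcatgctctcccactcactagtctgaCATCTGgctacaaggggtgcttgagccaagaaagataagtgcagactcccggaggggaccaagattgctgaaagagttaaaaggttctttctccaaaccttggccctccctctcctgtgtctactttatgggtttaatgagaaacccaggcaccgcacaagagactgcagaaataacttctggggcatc
Thbs4: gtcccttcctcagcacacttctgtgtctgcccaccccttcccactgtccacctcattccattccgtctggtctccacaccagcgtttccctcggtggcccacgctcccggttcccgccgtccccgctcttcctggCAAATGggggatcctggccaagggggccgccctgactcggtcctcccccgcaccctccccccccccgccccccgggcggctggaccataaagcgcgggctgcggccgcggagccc
The E-box was found once upstream of Fmod (CATCTG, 189 bases before the RefSeq start) and once upstream of Thbs4 (CAAATG, 115 bases before it), and not in the 250 bases before the start of Tnmd. It is a frequent word, present in 66.2% of the 32851 windows of 250 bases in the table. The GC box GGGCGG, the letters that Sp factors bind, occurred 3 times upstream of Thbs4, in neither of the others, and in 32.7% of all windows. GC content over the 250 bases was 38.4% for Tnmd, 51.2% for Fmod and 70.8% for Thbs4, against a median of 52.4%. Neither TATAAA, found in 12.4% of all windows, nor the Egr site GCGNGGGCG, found in 4.7%, occurred upstream of these 3 genes. A match of letters is a description and no evidence of binding. Windows matched 5 of the 8 genes by symbol. Those of Kera and Egr2 are not shown, the first because it lies in an exon of the GENCODE model, and none is shown for Scx, Mkx and Comp.

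Sp6+Sp8 cKO and wildtype were compared first across all 8 genes. No member passed the size rule, where 2.95% of the 16861 genes tested were lower and 2.84% higher. With the threshold lowered to 1.5-fold, Fmod, Thbs4 and Kera were lower, 3 of 8 genes against 7.05% of all genes tested. The interval lay below 1 for 5 members, against 24.2% of all genes, and above 1 for Egr2 only, against 21.8%. The median log2 ratio was -0.49 over the 8 genes and -0.02 over all genes tested.

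Within batch 1 the ratios to Sp6 cKO came out similar. Kera was the 1 member of 8 lower past the size rule, against 2.08% of 16848 genes, and none was higher, against 1.89%. At 1.5-fold Tnmd, Fmod, Thbs4 and Kera were lower, against 4.93%. The interval lay below 1 for 5 members, where 19.2% of all genes did so, and above 1 for none, where 17% did. The median log2 ratio of the 8 genes was -0.55, beside -0.01 for all genes.

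Against Sp8 cKO, the second comparison within batch 1, Kera was again the only member lower past the size rule, against 2.8% of 16889 genes, and none was higher, against 1.88%. All 5 matrix and membrane genes were lower at 1.5-fold, against 6.38% of all genes, and the same 5 had an interval below 1, against 20.8%. Egr2 had an interval above 1, against 18.1%. The median was -0.66 for the 8 genes and -0.02 for all genes. The comparisons of Sp6+Sp8 cKO share that library, so their values are set side by side and are not independent of each other.

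**Figure D2:**
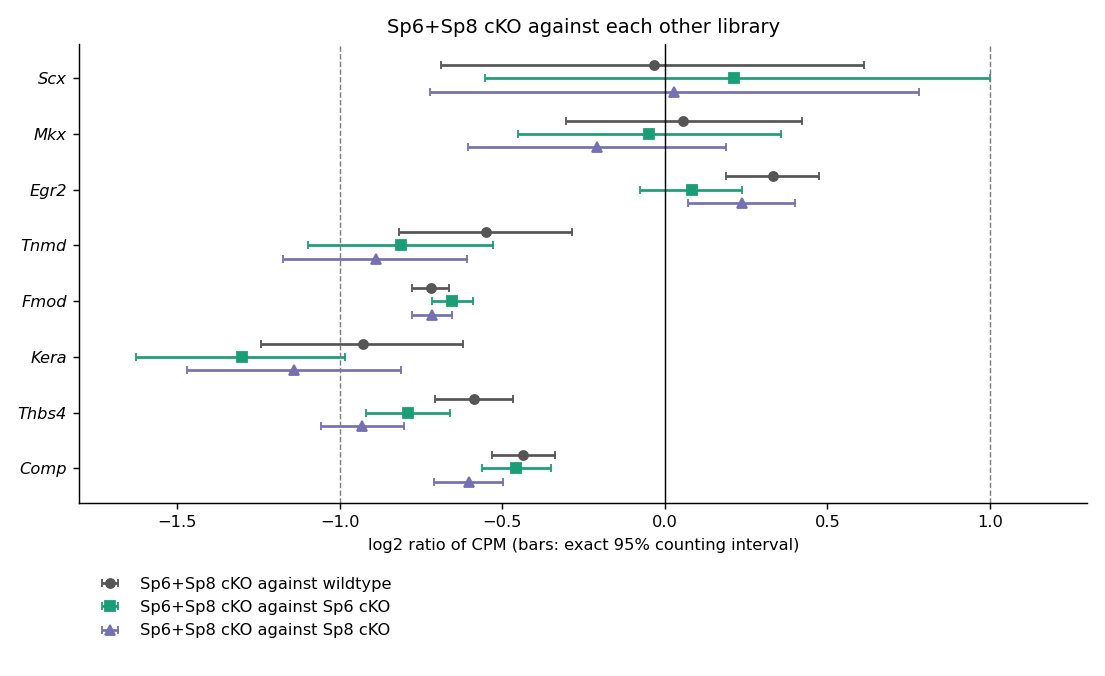
Log2 of the CPM ratio (x axis) of Sp6+Sp8 cKO to wildtype, Sp6 cKO and Sp8 cKO for each of the 8 genes (y axis). Points are single-library ratios, bars exact 95% counting intervals, and dashed lines a log2 ratio of -1 or 1. The 5 matrix and membrane genes lie left of 0 in all 3 comparisons and Scx and Mkx straddle it.

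**Figure D3:**
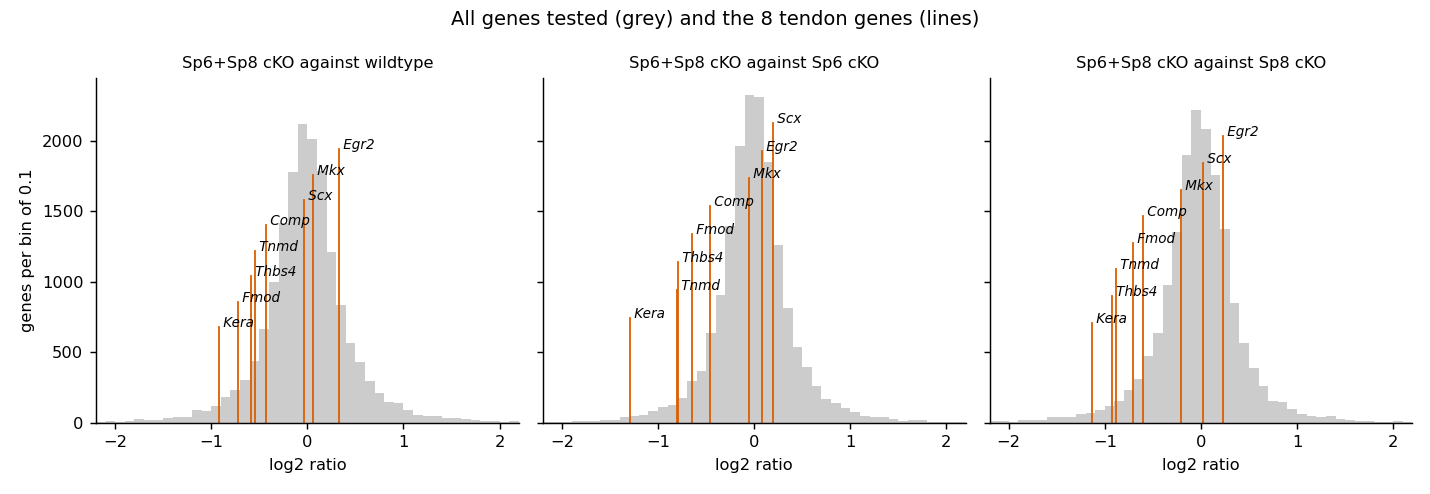
Number of genes (y axis) by log2 ratio in bins of 0.1 (x axis) for Sp6+Sp8 cKO against each of the other libraries. Grey bars are all genes tested and orange lines the 8 tendon genes at their own log2 ratio, with line height chosen only to separate the names. Kera, at -0.92, -1.29 and -1.13, lies farthest to the left in each panel.

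Among all genes tested against Sp8 cKO, 2.27% had a lower log2 ratio than Kera, 3.37% a lower one than Thbs4, 3.8% than Tnmd, 5.64% than Fmod and 7.75% than Comp. The corresponding shares for Mkx, Scx and Egr2 were 27.6%, 55.5% and 78.3%. In this comparison the matrix and membrane genes sat in the lower tail of the distribution and the regulators in its body. The place of Scx is uncertain, since its interval there, 0.606 to 1.72, includes the ratios of Fmod and Comp. Against wildtype the shares were 3.55% for Kera, 5.86% for Fmod, 8.2% for Thbs4, 9.17% for Tnmd and 13.1% for Comp. Against Sp6 cKO they ran from 1.18% for Kera to 10% for Comp.

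The single knockouts differed less from wildtype. In Sp6 cKO no member passed the size rule, against 4.4% of 16884 genes in either direction, and none passed at 1.5-fold, against 9.09%. Intervals lay above 1 for Tnmd (1.20-fold), Thbs4 (1.15), Kera (1.3) and Egr2 (1.19), which is 4 of 8 against 15.9% of all genes, and below 1 for Fmod, at a ratio of 0.954 (95% interval 0.920 to 0.988), against 15.9%. The median log2 ratio was 0.16, beside -0.01 for all genes.

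In Sp8 cKO no member passed the size rule either, against 3.82% of 16878 genes, and none passed at 1.5-fold, against 8.16%. Tnmd, Thbs4 and Comp had intervals above 1, at 1.27-fold, 1.27-fold and 1.12-fold, where 14.8% of all genes did. No member had an interval below 1, against 14.9%. The median log2 ratio of 0.19 stood beside -0.01 for all genes. Sp8 cKO and Sp6 cKO, compared within batch 1, differed by log2 ratios between -0.16 and 0.18, with no member past the size rule, against 3.1% of 16912 genes, and none past 1.5-fold, against 6.02%. Fmod, Thbs4 and Comp had intervals above 1, against 10.5% of all genes, and no member had one below 1, against 10.8%.

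The 4 genotypes form a square, so the effect of deleting Sp6 can be set out with Sp8 intact (Sp6 cKO minus wildtype) and with Sp8 deleted (Sp6+Sp8 cKO minus Sp8 cKO), a pair of contrasts with no library in common. For Kera these log2 differences were 0.37 and -1.13, so the second minus the first was -1.50 (approximate 95% counting interval -1.90 to -1.10). Tnmd had 0.26 and -0.88, a gap of -1.14 (-1.50 to -0.78), and Thbs4 0.20 and -0.93, a gap of -1.13 (-1.29 to -0.96). The gaps of Fmod and Comp were smaller, at -0.65 (-0.73 to -0.57) and -0.62 (-0.76 to -0.48).

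For these 5 genes the log2 difference in Sp6+Sp8 cKO lay below the sum of the single-knockout differences. Kera, for example, was at -0.92 where the single differences summed to 0.58, and Fmod at -0.72 where they summed to -0.07. The gap was -0.02 for Egr2 (-0.24 to 0.21), -0.32 for Mkx (-0.84 to 0.21) and 0.26 for Scx (-0.72 to 1.23), with intervals that include 0. Over the 8 genes the median gap was -0.64, with 5 intervals below 0 and 0 above, while over 17332 genes the median was -0.01, with 17.3% of intervals below 0 and 15.6% above. The gap uses the wildtype library, so the batch enters it, and Sp6 RNA was only partly reduced in Sp6+Sp8 cKO.

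**Figure D4:**
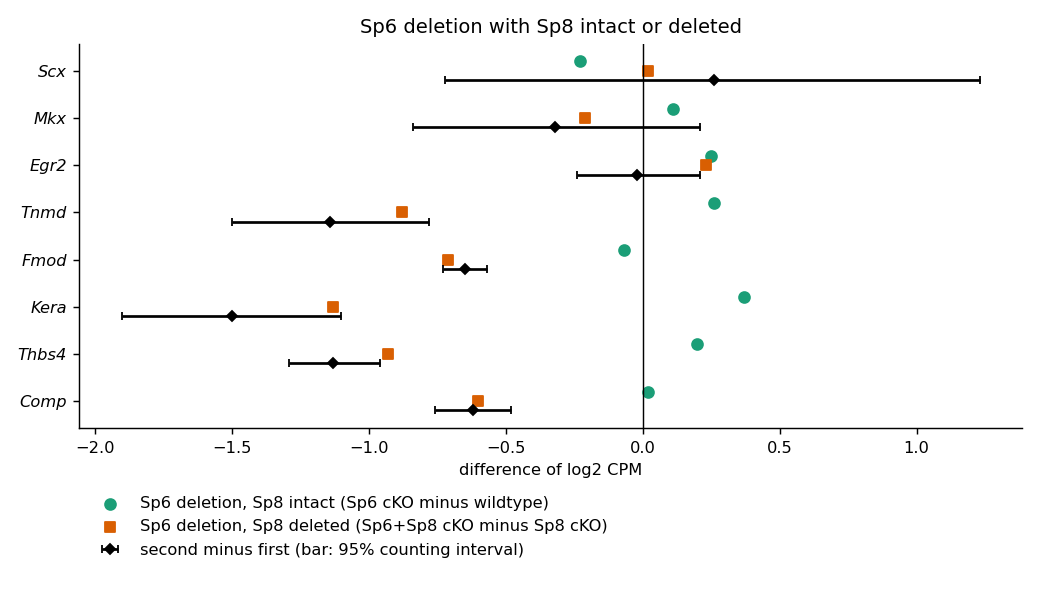
Difference of log2 CPM (x axis) for each of the 8 genes (y axis) on Sp6 deletion with Sp8 intact (circles), on Sp6 deletion with Sp8 deleted (squares), and the second minus the first (diamonds, with 95% counting intervals). The diamonds of Tnmd, Fmod, Kera, Thbs4 and Comp lie left of 0, from -1.50 for Kera to -0.62 for Comp.

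Of 9 measured genes in the list of other tendon regulators, among them Egr1 and Nfatc4, 0 passed the size rule in any of the 6 comparisons. With 2.95% of all genes lower and 2.84% higher past it in Sp6+Sp8 cKO against wildtype, and smaller shares in the other comparisons, a count of 0 in this or another short list says little. The list medians for Sp6+Sp8 cKO against wildtype, Sp6 cKO and Sp8 cKO were 0.03, 0.10 and 0.17. Twist1, Twist2 and the E proteins Tcf3, Tcf4 and Tcf12, with which Scx can pair or to which it is related, summed with Tcf15 to between 455 and 473 CPM, and 0 of 5 measured passed. The Iroquois relatives of Mkx summed to between 102 and 106 CPM, again with 0 of 5 past the rule. Egr1, the relative of Egr2, was highest in Sp6+Sp8 cKO too, at 243 CPM against 171, 206 and 158 CPM in wildtype, Sp6 cKO and Sp8 cKO, whereas Egr3 was at 88.8 CPM against 86.6, 103 and 100 CPM. In the list of Egr and Nab genes 0 of 4 measured passed the size rule.

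The TGF-beta pathway acts upstream of Scx in tendon. Of its 20 measured genes 0 passed the size rule in any comparison, and the medians for Sp6+Sp8 cKO were -0.06, -0.06 and -0.08 against wildtype, Sp6 cKO and Sp8 cKO. The ligand genes Tgfb1, Tgfb2 and Tgfb3 were at 56.7, 53.3 and 40.6 CPM in Sp6+Sp8 cKO and at 51.5, 55.6 and 40.1 CPM in wildtype. Mstn, myostatin, had 2.99 CPM in Sp6+Sp8 cKO and 5.47, 4.65 and 5.08 CPM in wildtype, Sp6 cKO and Sp8 cKO, short of the size rule.

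The other small leucine-rich proteoglycans, relatives of Fmod and Kera, had medians of -0.24, -0.45 and -0.48 for Sp6+Sp8 cKO against wildtype, Sp6 cKO and Sp8 cKO. Of 11 measured, 1, 1 and 2 were lower past the size rule, against 2.95%, 2.08% and 2.8% of all genes, and 0 higher. Intervals lay below 1 for 6, 9 and 9 of the 11, against 24.2%, 19.2% and 20.8% of all genes. They lay above 1 for 1, 0 and 0, against 21.8%, 17% and 18.1%. Chad, chondroadherin, was lower in each comparison, at 43.6 CPM in Sp6+Sp8 cKO and 111, 114 and 96.3 CPM in wildtype, Sp6 cKO and Sp8 cKO. Epyc, epiphycan, was lower only against Sp8 cKO, with a log2 ratio of -1.09 from 23 and 42 counts. The abundant Bgn (biglycan) was at 871 CPM in Sp6+Sp8 cKO against 808, 978 and 918 CPM in wildtype, Sp6 cKO and Sp8 cKO. Dcn (decorin), also abundant, was lowest in Sp6+Sp8 cKO, at 520 CPM against 722, 774 and 770 CPM. Lum, at 489 CPM against 580, 578 and 588 CPM, and Prelp, at 107 CPM against 177, 169 and 164 CPM, were lowest there too.

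Fibril collagens and their crosslinking enzymes had smaller median differences, at -0.14, -0.17 and -0.22, and 0 of 21 passed the size rule in any comparison. Intervals lay below 1 for 13, 14 and 13 of the 21, against 24.2%, 19.2% and 20.8% of all genes. They lay above 1 for 3, 0 and 0, against 21.8%, 17% and 18.1%. Col1a1, the main collagen of tendon, dermis and bone, was at 6332 CPM in Sp6+Sp8 cKO and 7860, 8095 and 7774 CPM in wildtype, Sp6 cKO and Sp8 cKO. Among further tendon and ligament matrix and progenitor genes, 1 of 16 was lower past the size rule against wildtype (2.95% of all genes). Against Sp6 cKO 2 were lower (2.08%), and 0 against Sp8 cKO (2.8%). These were Cilp2, a cartilage intermediate layer protein, with log2 ratios of -1.12 to wildtype and -1.28 to Sp6 cKO, and Angptl7, at -1.01 to Sp6 cKO. The list medians were -0.19, -0.27 and -0.19. Intervals lay below 1 for 8, 10 and 10 of these 16 genes and above 1 for 1, 1 and 0, beside the same shares of all genes. The remaining thrombospondins Thbs1, Thbs2 and Thbs3 were each highest in wildtype. They summed to 378 CPM in Sp6+Sp8 cKO, 414 and 417 CPM in Sp6 cKO and Sp8 cKO and 516 CPM in wildtype. Thbs2 was lowest in Sp6+Sp8 cKO, at 144 CPM against 183, 170 and 170 CPM in wildtype, Sp6 cKO and Sp8 cKO. Thbs1 was at 213 CPM against 307, 222 and 224 CPM.

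**Figure D5:**
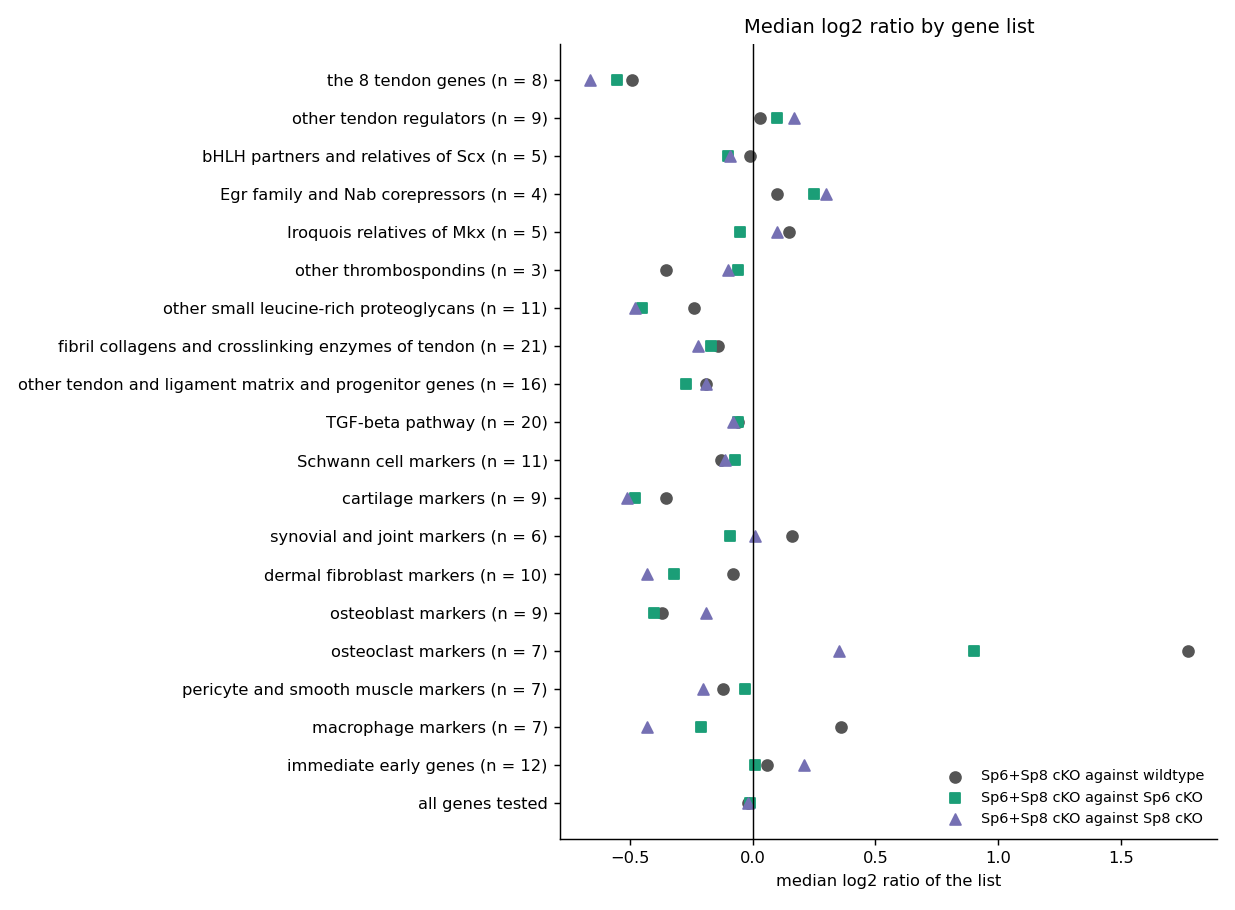
Median log2 ratio (x axis) of each gene list (y axis, with the number of measured genes) for Sp6+Sp8 cKO against wildtype (circles), Sp6 cKO (squares) and Sp8 cKO (triangles). The 8 tendon genes lie at -0.49, -0.55 and -0.66, and all genes tested at -0.02, -0.01 and -0.02. Also left of 0 in all 3 comparisons are the other proteoglycans, collagens, other tendon matrix genes, other thrombospondins, helix-loop-helix and TGF-beta genes, and the cartilage, osteoblast, dermal fibroblast, Schwann cell and pericyte markers. The lists of skeletal muscle and globin genes, with 1 and 4 measured genes, are not drawn.

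Markers of other cells in the digit tip moved with the tendon matrix genes to different degrees. Cartilage markers had medians of -0.35, -0.48 and -0.51 for Sp6+Sp8 cKO against wildtype, Sp6 cKO and Sp8 cKO. Lower past the size rule were 1, 2 and 2 of 9 measured genes, against 2.95%, 2.08% and 2.8% of all genes. Intervals lay below 1 for 3, 5 and 5 of the 9, against 24.2%, 19.2% and 20.8%, and above 1 for 0 in each comparison. Col2a1, the cartilage collagen, was at 1.56 CPM in Sp6+Sp8 cKO, from 24 counts, against 4.14, 4.88 and 3.33 CPM. The more abundant Acan (aggrecan) was at 42.9 CPM against 42.5, 60 and 61.2 CPM in wildtype, Sp6 cKO and Sp8 cKO. Matn1 was at 0 counts in every library, and the list summed to between 149 and 189 CPM. Dermal fibroblast markers, of which Lum is also in the proteoglycan list, had medians of -0.08, -0.32 and -0.43 with 0 of 10 past the size rule. Their intervals lay below 1 for 4, 9 and 9 of 10, against 24.2%, 19.2% and 20.8% of all genes, and above 1 for 0 in each comparison. They summed to 1518 CPM in Sp6+Sp8 cKO and to between 1884 and 1983 CPM in the others. Osteoblast markers had medians of -0.37, -0.40 and -0.19. Against wildtype 2 of 9 were lower past the size rule (2.95% of all genes), Bglap (osteocalcin) at -1.56 and Bglap2 at -1.09. Ibsp (bone sialoprotein) was higher at 1.01 (2.84%). Lower past the rule were 0 against Sp6 cKO (2.08%) and 1 against Sp8 cKO (2.8%). Their intervals lay below 1 for 6, 8 and 7 of 9 and above 1 for 2, 0 and 0. The osteoblast markers summed to between 571 and 675 CPM. Mitochondrially encoded genes took 6.24% of counts in Sp6+Sp8 cKO and between 4.35% and 4.73% in the others. The part of these cells and of the mitochondrial share in the tendon gene result was not tested.

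Osteoclast markers were higher in Sp6+Sp8 cKO than in wildtype, with 5 of 7 measured genes past the size rule, against 2.84% of all genes. Within batch 1, 2 of 7 were higher past it against Sp6 cKO (1.89%) and 0 against Sp8 cKO (1.88%). Against Sp8 cKO 3 intervals lay above 1 (18.1% of all genes) and 1 below (20.8%). The list summed to 124 CPM in wildtype, 223 CPM in Sp6 cKO, 346 CPM in Sp8 cKO and 342 CPM in Sp6+Sp8 cKO. Pericyte and smooth muscle markers had their lowest sum in Sp6+Sp8 cKO, 755 CPM against 814, 781 and 875 CPM in wildtype, Sp6 cKO and Sp8 cKO. Intervals lay below 1 for 2 of 7 against wildtype, where 24.2% of all genes did so, and for 2 against Sp6 cKO (19.2%). Against Sp8 cKO they did so for 6 (20.8%). In Sp8 cKO against wildtype, 5 of these 7 markers had an interval above 1, against 14.8% of all genes. Macrophage markers were higher in Sp6+Sp8 cKO than in wildtype, with a median of 0.36, but within batch 1 all 7 were below Sp6 cKO and below Sp8 cKO, with medians of -0.21 and -0.43. The part of pericytes and macrophages in the tendon gene result was not tested either. Globin genes of red blood cells summed to between 258 and 678 CPM with Sp8 cKO highest, and synovial and joint markers to between 695 and 1011 CPM. Skeletal muscle was nearly absent: Myh4 and Tnnc2 had 0 counts in every library, Acta1 was at most 0.26 CPM, and the list summed to between 5.75 and 8.97 CPM, most of it Des. The tendon genes were therefore measured in tissue with almost no skeletal muscle RNA.

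Egr2 is also a gene of Schwann cells and an immediate early gene. Schwann cell markers summed to between 262 and 297 CPM with 0 of 11 measured genes past the size rule in any comparison, and Sox10 was at 18.5 CPM in Sp6+Sp8 cKO and 17.6 CPM in wildtype. Immediate early genes went in both directions in Sp6+Sp8 cKO against wildtype, with a median log2 ratio of 0.06 over 12 genes. Past the size rule 4 were higher, Fosb at 2.97, Atf3 at 2.92, Fosl1 at 1.39 and Nr4a1 at 1.24, against 2.84% of all genes. Lower past it were 0, against 2.95%. The ratio was below 0 for 6, and 3 of these, Fos at -0.84, Junb at -0.35 and Dusp1 at -0.20, had an interval below 1, against 24.2% of all genes. The list summed to 529 CPM in Sp6+Sp8 cKO, 517 CPM in Sp6 cKO, 462 CPM in wildtype and 414 CPM in Sp8 cKO, but without Fosb, left out after its values were seen, to 449, 498, 452 and 405 CPM. The part of these genes in the level of Egr2 was not tested.

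The likeness of profiles was measured as the Euclidean distance between log2 CPM values of the 4 libraries, each gene centred on its own mean. Within the 8 genes Tnmd and Thbs4 were closest, at a distance of 0.053, and Kera and Egr2 farthest apart, at 1.2. Among 10741 protein-coding candidates outside the lists, Mmp23, a membrane metalloproteinase, was nearest to both Tnmd (0.11) and Thbs4 (0.15). Next came Il1f5, a keratinocyte cytokine antagonist, at 0.13 and Guk1 at 0.16 for Tnmd, and Tmem62 and Guk1, both at 0.16, for Thbs4. Nearest to Fmod were Ssc5d (0.034), Dkkl1 (0.051) and Crct1 (0.056), the last a gene of cornifying epidermis. Comp was closest to Tnxb, tenascin X, a matrix glycoprotein of connective tissue (0.018), then to Txnip (0.030) and Ubxn1 (0.035). The nearest to Kera were Krtap3-3 (0.070), Krt34 (0.17) and Krtap3-1 (0.19), which encode hair and nail keratin-associated proteins and a cortical keratin. For the regulators they were Aurkaip1, Lrrfip2 and Morf4l2 (Scx), Esyt1, Fbxw5 and Egln2 (Mkx), and Hypk, Rtca and Atp6v0a4 (Egr2). Such profiles rest on 4 libraries. Within a distance of 0.2 there were 4 candidates for Kera, 16 for Thbs4, 20 for Tnmd, 119 for Fmod and 368 for Comp, but 2389 for Scx, 1823 for Mkx and 1529 for Egr2, whose flat profiles resemble those of many genes.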

How the data were processed

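RNA was sequenced from 4 whole digit tip libraries, 1 per genotype. Per the labels' protocols, RNA with poly-A tails was turned into strand-specific cDNA and read as pairs on a DNBSEQ platform. The authors deposited a table of estimated counts, which need not be whole. The submitters' processing notes name Salmon, STAR, featureCounts, deepTools, edgeR and Trim Galore 0.6.4, and build GRCm38. They give the tools no roles, so which tool made the table is not stated, nor is the gene annotation. Between 84.6% and 87.1% of values were whole numbers. The table holds 1 further column that was not used.

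Values were rounded, scaled by TMM factors (edgeR 4.0.16, R 4.3.3) and compared as log2 CPM with a prior count of 2. DESeq2 1.42.0 gave alternative size factors only. Intervals were exact Clopper-Pearson intervals at 95%, and the size rule is defined with the results. Positions and exon lengths came from GENCODE M21, where 98.8% of identifiers were found. Cnmd, Ccn2 and Snorc were found under older symbols. The procedure was checked on simulated counts that varied by counting error alone, so the check does not cover variation between animals. A list gene was measured if its CPM reached 1 in any library, which 17332 genes did. Named were all 8 members, per list and comparison up to 4 genes past the size rule or up to 2 abundant examples, and the 3 nearest profiles per member among genes at 5 CPM or more. Fos, Junb, Dusp1, Egr3, Mstn, Tgfb1 to Tgfb3, Bgn, Dcn, Lum, Prelp, Acan, Sox10, Acta1, Des, Sp6, Sp8, Xist, markers at 0 and genes listed only as contents of a list were named outside this rule, after their values were seen. The members and the 20 other lists were chosen with earlier results of these data known. For counts of members 12 alternatives were run and for log2 ratios 8.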

Additional observations from a re-analysis of the deposited data

Results flagged for a closer look

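Several members differed in opposite directions between a deletion made with the other factor intact and the same deletion made with it absent, with each interval excluding 1. On Sp6 deletion, the log2 ratio with Sp8 deleted and with Sp8 intact was -0.88 and 0.26 for Tnmd, -0.93 and 0.20 for Thbs4, and -1.13 and 0.37 for Kera. On Sp8 deletion, the log2 ratio with Sp6 deleted and with Sp6 intact was -0.80 and 0.34 for Tnmd, -0.79 and 0.34 for Thbs4, and -0.46 and 0.17 for Comp. These contrasts use the same 4 libraries, each group is 1 library, and the difference between the groups was not tested against variation between animals. The contrasts with the other factor intact compare batch 1 with batch 3, so genotype and batch cannot be told apart in them. Sp6 RNA was only 1.69-fold lower than wildtype in Sp6+Sp8 cKO.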

How the results depend on the processing

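Of 48 log2 ratios under 8 alternatives of scaling, prior count, rounding and the gene filter before scaling, all 384 values stayed within the counting interval of the reported one, and none past the size rule changed sign. The exceptions in sign were 4 values of Fmod (Sp8 cKO against wildtype) and Scx (Sp6+Sp8 cKO against wildtype), all near 0. No scaling moved the median of all genes by more than 0.05. The number of members past the rule depended on the fold required: at 1.5-fold it was 3 for Sp6+Sp8 cKO against wildtype in place of 0, 4 against Sp6 cKO in place of 1 and 5 against Sp8 cKO in place of 1. At 4-fold it was 0 in both comparisons in which it had been 1. No paired analysis was possible because each group has 1 library, and for the same reason no library was left out. Depth limits Scx most, since 3 counts correspond to between 0.138 and 0.238 CPM and the upper bounds of its ratios reach 2.02.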
